A study of Mus musculus with 80 samples.

Results

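Growth factor and morphogen signalling genes were followed in mouse lung across the life span. A gene was a member if a spot carried its symbol and no other and the symbol belonged to the TGF-beta, latent TGF-beta binding protein, BMP, Smad, Wnt, Frizzled, FGF, IGF, Jagged, PDGF or activin receptor families, or to families named like them. Of 7151 genes with such a spot, 50 were members, with 67 spots among them. Each gene was read from its spot of highest mean over all mice, on table A for 16 members and on table B for 34. Notch receptors, VEGF ligands, secreted Frizzled-related proteins, angiopoietins, Kdr and Tek had no spot that met the rule and were not analysed here.

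RNA was taken from the lungs of 40 C57BL/6 mice, 20 male and 20 female, which ate regular feed freely until they were killed. The groups were 5 mice of 17 to 21 days (2 male), 5 of 33 to 44 days (3 male), and 10 each of 169 to 194, 476 to 499 and 704 to 743 days, with 5 males in each of these 3. No allele or treatment set any group apart, so the comparisons are of age and sex. Each mouse gave 1 array per table of a radioactively probed cDNA clone set, and the deposited values are z scores, which place a spot within its own array in units of the SD over that array's 8448 spots. A z score shows whether a gene stood higher or lower among the other spots in one mouse than in another, but gives no fold change and does not rank one gene's RNA against another's.

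These families carry the signals that build and repair the lung. TGF-beta, activin and BMP ligands bind paired serine/threonine kinase receptors that phosphorylate Smad proteins, while FGF, IGF and PDGF ligands bind receptor tyrosine kinases. Wnt ligands act through Frizzled receptors, and Jagged ligands activate Notch receptors on neighbouring cells. In lung development FGF10 from the mesenchyme drives branching of the epithelium, BMP4 acts at the branch tips, and PDGF-A brings PDGFRA-positive fibroblasts to the forming alveoli. The mice of 17 to 21 days fall in the last part of that postnatal growth, which is why they are shown apart from those of 33 to 44 days.

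Within age groups, arrays correlated with one another at a mean of 0.876 to 0.967 (table A) or 0.918 to 0.981 (table B). Among the mice of 704 to 743 days, the 2 lowest on table A were females of 712 and 704 days. The lung label could be checked only in part, because 2 of 8 alveolar type II markers (Sftpd and Slc34a2), 1 of 6 type I and 2 of 6 airway markers were measured, and none of 6 markers of thymus, heart or muscle. After age group and sex were fitted, the SD between mice had a median of 0.181 z over the members and 0.182 z over all genes. It was lowest for the growth factor gene Igf2 (0.0869 z), whose 40 values lay between 0.73 and 1.13, and highest for the Notch ligand gene Jag1 (0.583 z), whose values lay between 0.19 and 2.5.

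Of the 7 comparisons made on the values as deposited, members were called in that of the youngest groups alone. Between 17 to 21 and 33 to 44 days, 7 of 50 members fell at a limma adjusted p under 0.05 and none rose: Bmp4, Tgfbi, Tgfb1i1, Pdgfc, Fgfr1op2, Pdgfra and Pdgfrb. That is 14% of the members, where 9.2% of all 7151 genes were called in either direction and 7.34% fell. The same 7 members, and no others, had groups that did not overlap, all lower at 33 to 44 days, against 7.59% of genes lower and 2.53% higher without overlap. The median difference was -0.0217 z over the members and 0.00417 z over all genes. Of the 4 PDGF members 3 fell, as did 2 of the 16 of the TGF-beta group, 1 of 6 of the BMP group and 1 of 7 of the FGF group. None of the 7 Wnt, 7 IGF and 1 Notch members was called. All 7 calls came from as-deposited values and none of them held after correction for spot position, which is described below with its values.

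Promoter sequence is shown for 3 of the members that fell, Bmp4, Tgfbi and Pdgfc. With Tgfb1i1, for which no promoter was matched, these had the largest falls of the members as deposited. The sequences are the 250 bases before the gene's start from RefSeq (GRCm38.p6), in the direction of transcription, and capitals mark the Smad box, the letters CAGAC on either strand, which Smad3 and Smad4 can bind. They lie at chr14:46390670-46390919 on the minus strand for Bmp4, at chr13:56609336-56609585 on the plus strand for Tgfbi and at chr3:81036166-81036415 on the plus strand for Pdgfc. The genes themselves span chr14:46383525-46390669, chr13:56609586-56639359 and chr3:81036416-81214040.
Bmp4: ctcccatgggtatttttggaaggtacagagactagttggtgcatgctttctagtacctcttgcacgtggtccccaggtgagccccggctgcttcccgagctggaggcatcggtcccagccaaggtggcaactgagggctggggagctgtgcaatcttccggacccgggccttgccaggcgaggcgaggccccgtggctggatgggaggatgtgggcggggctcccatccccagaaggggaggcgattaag
Tgfbi: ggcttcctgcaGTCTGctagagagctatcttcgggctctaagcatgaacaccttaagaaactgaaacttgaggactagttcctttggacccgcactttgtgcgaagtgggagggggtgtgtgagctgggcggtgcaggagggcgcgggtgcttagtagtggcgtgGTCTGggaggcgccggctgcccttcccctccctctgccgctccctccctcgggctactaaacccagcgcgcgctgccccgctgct
Pdgfc: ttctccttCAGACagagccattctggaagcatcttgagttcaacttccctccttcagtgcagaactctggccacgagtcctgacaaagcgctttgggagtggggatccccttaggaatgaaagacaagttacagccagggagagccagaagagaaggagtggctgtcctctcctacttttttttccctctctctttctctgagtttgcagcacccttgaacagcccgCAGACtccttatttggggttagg
Tgfbi and Pdgfc held 2 Smad boxes each and Bmp4 held 0. A promoter was matched for 41 members by gene number, and 18 of them (43.9%) held a Smad box, against 42.2% of 32851 promoters of the same length. The Smad palindrome GTCTAGAC was in 0 of the 41 and in 0.167% of all promoters. A TCF/LEF motif of Wnt signalling, ATCAAAG, was in 1 of the 41 (Wnt5b) and in 3.21% of all, and the RBPJ motif of Notch signalling, TTCCCAC, was in 2 (Bmpr2 and Smad5) and in 5.42% of all. The GC box GGGCGG was in 25 of the 41 (61%) and in 32.7% of all, and the TATA box TATAAA in 3 (Bmp15, Igfbp4 and Tgfb2) and in 12.4% of all. The 32851 promoters were not limited to genes on the arrays or to any kind of gene, so they are not a matched set for the members. Each motif was searched on both strands, and none of them contains another. A match describes letters in these windows and does not show that a factor binds there.

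Bmp4 encodes a BMP ligand. In the mice of 17 to 21 days its z scores were 1.43, 1.36 and 1.7 in the females and 1.12 and 1.93 in the males. At 33 to 44 days they were 0.3 and 1.05 in the females and 0.5, 0.56 and 0.73 in the males. Every mouse of the older group lay below every mouse of the younger one, by the narrowest margin between the female of 40 days and the male of 17 days. The means were 1.51 ± 0.314 (SD, n = 5) and 0.628 ± 0.282 (SD, n = 5), and the difference with sex as a term was -0.875 z (SE 0.165, limma adjusted p = 0.0152). This was the largest difference of any member. Bmp4 then stayed near the lower level, with medians of 0.535 at 169 to 194 days (range 0.16 to 1.53) and 0.795 at 476 to 499 days (0.34 to 1.67), and was lowest at 704 to 743 days (median 0.305, range -0.14 to 0.98).

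Tgfbi encodes a matrix protein that TGF-beta induces and that binds integrins and collagen. Its values at 17 to 21 days were 2.56, 2.24 and 2.37 in females and 2.14 and 2.48 in males. At 33 to 44 days they were 1.52 and 2.01 in females and 1.63, 1.66 and 1.87 in males. The groups were apart again, with the female of 40 days once more the highest of its group. Means were 2.36 ± 0.171 (SD, n = 5) and 1.74 ± 0.198 (SD, n = 5), a difference of -0.608 z (SE 0.113, limma adjusted p = 0.0154). Tgfb1i1, which encodes the LIM-domain adaptor Hic-5 at focal adhesions, went from 2.5, 2.17 and 2.28 in females and 2.19 and 2.42 in males to 1.36 and 2 in females and 1.5, 1.69 and 1.68 in males. Its groups did not overlap either, and its difference was -0.659 z (SE 0.12, limma adjusted p = 0.0154).

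The PDGF members were 2 ligand genes and both receptor genes. Pdgfc encodes PDGF-C, a ligand of the alpha receptor that is secreted in latent form. Its values at 17 to 21 days were 1.63, 1.39 and 1.55 in females and 1.3 and 1.67 in males, against 0.83 and 1.15 in females and 0.7, 0.88 and 1.12 in males at 33 to 44 days. No mouse of the older group reached the lowest of the younger one, and the difference was -0.559 z (SE 0.11, limma adjusted p = 0.0156). Pdgfra, the receptor gene of the fibroblasts that take part in alveolar septation, lay at -0.66, -0.91 and -0.94 in females and -1.06 and -0.88 in males, then at -1.43 and -1.29 in females and -1.07, -1.28 and -1.31 in males. Its groups were barely apart, since the male of 17 days stood at -1.06 and the male of 40 days at -1.07. The difference was -0.387 z (SE 0.106, limma adjusted p = 0.0388), and it was not called when all 40 mice set the error (-0.378 z, SE 0.312, limma adjusted p = 0.638).

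Pdgfrb, the receptor gene of pericytes and smooth muscle, stood at 1.04, 0.84 and 0.93 in females and 0.98 and 0.88 in males, and then at 0.46 and 0.76 in females and 0.39, 0.71 and 0.6 in males. All 5 mice of 33 to 44 days were lower, by -0.345 z in the fit (SE 0.0899, limma adjusted p = 0.0368). Pdgfa, the other ligand gene, overlapped fully between the groups, with values from -0.09 to 0.25 and from -0.08 to 0.19 and a difference of -0.0517 z (SE 0.0874, limma adjusted p = 0.844). Fgfr1op2, a coiled-coil protein gene named for its fusion with the FGF receptor gene Fgfr1 in a blood disease, went from 1.12, 0.93 and 1.13 in females and 0.93 and 1.21 in males to 0.57 and 0.85 in females and 0.36, 0.38 and 0.69 in males. Its difference was -0.472 z (SE 0.105, limma adjusted p = 0.0208), and a second Fgfr1op2 spot gave -0.383 z (SE 0.102, limma adjusted p = 0.0409). It was the only called member with another spot. The FGF receptor gene Fgfr1 itself was not called (0.278 z, SE 0.148, limma adjusted p = 0.347).

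**Figure D1:**
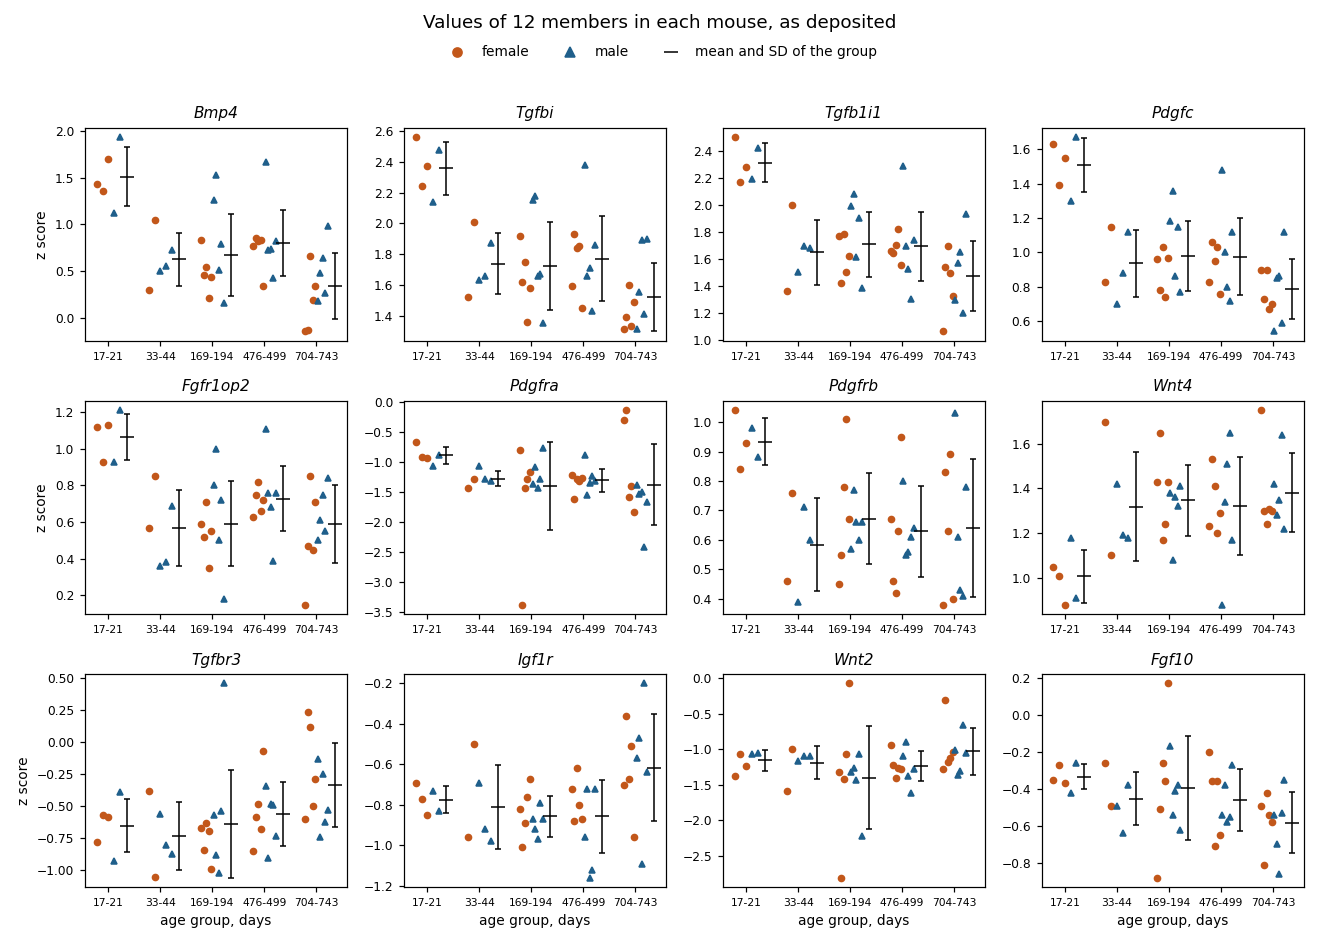
Z scores of 12 members in each of 40 mice, as deposited, by age group in days. Circles are females and triangles males; the bar beside each group is its mean with SD (n = 5, 5, 10, 10 and 10). The first 7 panels are the members that fell between 17 to 21 and 33 to 44 days, and in each of them no mouse of 33 to 44 days reaches the lowest mouse of 17 to 21 days; the other panels show Wnt4, Tgfbr3, Igf1r, Wnt2 and Fgf10.

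At the other end of the range, Wnt4, a Wnt ligand gene, and Igfbp3, which encodes the main circulating IGF-binding protein, had positive differences with an unadjusted p under 0.05 and were not called. Upward this held for 2 of 50 members (8.42% of genes) and downward for the same 7 that were called (12.6% of genes). Wnt4 was at 1.05, 1.01 and 0.88 in females and 1.18 and 0.91 in males of 17 to 21 days, and at 1.7 and 1.1 in females and 1.42, 1.19 and 1.18 in males of 33 to 44 days. The difference was 0.319 z (SE 0.118, limma adjusted p = 0.137), and the female of 33 days, at 1.7, was the highest. Without the female of 40 days, the lowest of the older group, Wnt4 was called (0.411 z, SE 0.119, limma adjusted p = 0.0465), and without the female of 33 days the difference was 0.181 z (SE 0.0958, limma adjusted p = 0.436). Igfbp3 differed by 0.186 z (SE 0.0816, limma adjusted p = 0.228), with ranges of -0.26 to -0.12 and -0.24 to 0.12 that overlapped. Jag1 had a difference of 0.312 z with a wide error (SE 0.22, limma adjusted p = 0.509).

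Whether these falls were called depended on single mice, and both their calls and their sizes depended on where a spot lay. Without the male of 19 days or without the female of 33 days, none of the 50 members was called, and without the female of 17 days or the female of 21 days 4 were, while the differences kept their sign in every case (Bmp4 -1.03 to -0.707 z over the 10 fits that each left out 1 mouse). Pdgfra was called in 2 of those 10 fits and Pdgfrb in 3, against 8 for Bmp4, Tgfbi, Tgfb1i1 and Pdgfc and 6 for Fgfr1op2. The number in each mouse's title is 46 or more for 2 of the 10 mice, both of 33 to 44 days (the female of 33 and a male of 40 days), and with this division as a block no member was called, Bmp4 standing at -0.713 z (limma adjusted p = 0.0785). Among the 8 mice with lower numbers no member was called either, with Bmp4 at -0.694 z (limma adjusted p = 0.117). The labels do not say what the number marks.

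Markers of other cell types moved in the same comparison. Of 7 fibroblast markers, all measured and Pdgfra itself among them, 4 fell and none rose at a limma adjusted p under 0.05. Tcf21 went the other way, at 0.263 z with an unadjusted p under 0.05. Their summed z score was 3.78 to 4.41 at 17 to 21 days and 2.32 to 2.88 at 33 to 44 days. All 3 measured erythroid markers of 4 fell (Hba-a1, Hba-a2 and Alas2), with sums of 5.28 to 6.84 and 2.92 to 4.52, while none of 3 endothelial, 2 smooth muscle and 2 alveolar type II markers was called. These marker values are as deposited. After the correction for spot position described below, 0% of genes were called in this comparison, so no marker call was left. The part of these markers in the members' falls was not tested. In bulk tissue fewer cells of a type and less RNA per cell cannot be told apart.

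Spots that share a column of the array's grid moved together. The layout of 16 blocks of 24 lines and 22 columns was read from the data, and the 7 members that fell lay in 5 of the columns. Pdgfc and Tgfb1i1 lay in column 9 of table B, where 251 of 384 spots fell and the median difference was -0.401 z. Fgfr1op2 lay in column 8 of table B (131 of 384 fell, median -0.267 z), Tgfbi in column 7 (91 of 384, median -0.115 z), and Bmp4 and Pdgfra in column 8 of table A (81 of 384, median -0.127 z). Pdgfrb lay in column 13 of table B, where 34 of 384 spots fell and the median was 0.0662 z. Wnt4 lay in column 18 of table B, where 51 of 384 spots were called, 2 of them falls, and the median was 0.185 z.

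With the median deviation of its block and column taken from every spot of an array, no call was left: 0 of 50 members and 0% of genes passed. At an unadjusted p under 0.05 there were 4 members downward (9.4% of genes) and 4 upward (7.37% of genes). Bmp4 kept -0.445 z (SE 0.109, limma adjusted p = 0.0765), Tgfbi -0.196 z (SE 0.0511, limma adjusted p = 0.0886) and Pdgfrb -0.184 z (SE 0.0582, limma adjusted p = 0.144). These 3 kept their sign and an unadjusted p under 0.05, and they were the 3 members still called when only the column median was subtracted. Pdgfc went to -0.0518 z (SE 0.0481), Tgfb1i1 to -0.066 z (SE 0.0546) and Fgfr1op2 to -0.0739 z (SE 0.0569), and Pdgfra turned to 0.0502 z (SE 0.119). The second Fgfr1op2 spot, in column 12 of table B where 63 of 384 spots fell as deposited, went to -0.0433 z. Pdgfa, which had not differed before, stood at -0.244 z (SE 0.0662, limma adjusted p = 0.1). The BMP receptor genes Bmpr2 (0.217 z) and Bmpr1a (0.184 z), Igfbp5 (0.21 z) and Smad4 (0.132 z) had positive differences with an unadjusted p under 0.05. The other Bmpr1a spots then stood at -0.0546 and 0.118 z, and the other Smad4 spot at -0.0736 z.

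**Figure D2:**
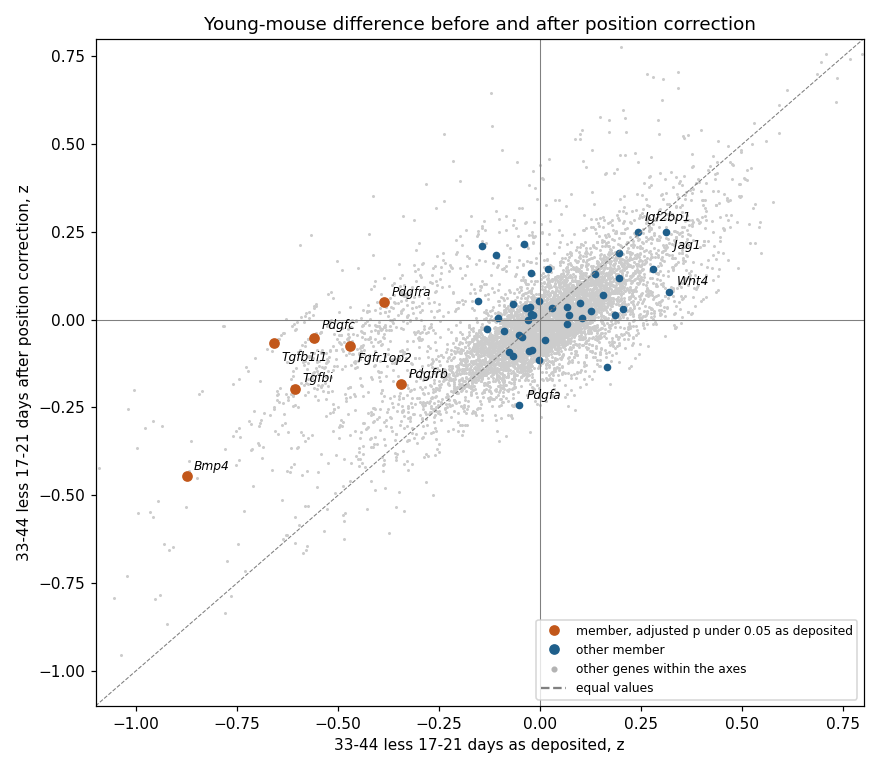
Difference of 33 to 44 less 17 to 21 days in z, as deposited (horizontal) and after subtraction of the median deviation of each block and column (vertical). Each grey point is a gene, orange points are the 7 members that fell and blue points the other 43, and the dashed line marks equal values. Bmp4 keeps the largest corrected difference of the members (-0.445 z), Pdgfc, Tgfb1i1 and Fgfr1op2 lie close to 0 on the vertical axis, and Pdgfra lies above it.

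Over the whole life span no member passed the threshold. In the age slope over 40 mice, with sex as a term, 0 of 50 members were called at a limma adjusted p under 0.05, as were 2 of all genes (0.028%). At an unadjusted p under 0.05 there were 2 members upward, Tgfbr3 and Wnt4 (4% of members, 5.13% of genes), and 7 downward, Bmp4, Tgfb1i1, Tgfbi, Pdgfc, Bmp1, Fgf10 and Igflr1 (14% of members, 10.4% of genes). Slopes were positive for 24 members and negative for 26, with a median of -0.00145 z per 100 days against 0.00191 over all genes, and 55.4% of genes had a positive slope.

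The 4 steepest negative slopes were those of Bmp4, Tgfb1i1, Tgfbi and Pdgfc, which are also among the members that fell by 33 to 44 days; the slope includes the same 10 young mice. Bmp4 had -0.0826 z per 100 days (SE 0.0243, limma adjusted p = 0.0677), Tgfb1i1 -0.0626 (SE 0.0168, limma adjusted p = 0.0537), Tgfbi -0.0625 (SE 0.017, limma adjusted p = 0.0537) and Pdgfc -0.0538 (SE 0.0142, limma adjusted p = 0.0537). All 5 of the mice of 17 to 21 days lay above all 10 of the oldest for these 4 and for Fgfr1op2, while for Wnt4 all 5 lay below. That is 5 members lower without overlap in the oldest mice, against 7.34% of genes, and 1 higher, against 1.73%. Without the mice of 17 to 21 days the slopes were -0.0371 (Bmp4), -0.0283 (Tgfb1i1), -0.0286 (Tgfbi) and -0.0242 (Pdgfc), each with a limma adjusted p of 1, and 2 members had an unadjusted p under 0.05 in place of 9. Over all 40 mice the slopes of these 4 were close to the threshold: with log2 of age in place of age all 4 were called (limma adjusted p = 0.0102 for Bmp4 and 0.00552 for the other 3), and 3 to 5 members were called in the 11 fits that left out the males of 40, 43, 186, 194, 476, 730 or 743 days or the females of 33, 180, 193 or 194 days, 1 at a time. Correction for spot position took them to -0.034 (Bmp4), 0.00599 (Tgfb1i1), -0.0203 (Tgfbi) and -0.00424 (Pdgfc), with limma adjusted p of 0.292, 0.805, 0.172 and 0.83. In column 9 of table B, which holds Pdgfc and Tgfb1i1, 90.4% of spots had a negative slope. Negative slopes with an unadjusted p under 0.05 held for 4 of 7 fibroblast, all 3 erythroid and 1 of 2 alveolar type II markers. None of them was called. Of 3 leukocyte markers, 2 had positive slopes with an unadjusted p under 0.05, and 1 of them (Ighm) was called. The part of these markers in the members' slopes was not tested.

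Tgfbr3 encodes betaglycan, a co-receptor that presents TGF-beta ligands to the signalling receptors. It had the steepest positive slope of the members, 0.0487 (SE 0.0177, limma adjusted p = 0.151). The median was -0.58 at 17 to 21 days (range -0.93 to -0.39), -0.8 at 33 to 44 days (-1.05 to -0.38), -0.68 at 169 to 194 days (-1.02 to 0.46), -0.535 at 476 to 499 days (-0.9 to -0.07) and -0.395 at 704 to 743 days (-0.74 to 0.24). The groups overlapped throughout, and the male of 194 days, at 0.46, was above every other mouse. Unlike those of the 4 falling members, its slope changed little with position correction (0.0418, SE 0.0149, limma adjusted p = 0.197). Without the male of 194 days Tgfbr3 was called, at 0.0554 (SE 0.0146, limma adjusted p = 0.0259).

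Igflr1, a receptor gene of the TNF receptor family named for an IGF-like ligand, and Fgf10 likewise kept their slopes. The spots of Igflr1, Fgf10 and Tgfbr3 were dim, with means of -1.38, -0.458 and -0.5545 z over the 40 mice. All were among the dimmest 33.3% of spots, and without those spots 6 members had an unadjusted p under 0.05 in place of 9. Igflr1 had -0.0306 z per 100 days as deposited (SE 0.0128, limma adjusted p = 0.239) and -0.0371 after correction (SE 0.0123, limma adjusted p = 0.154). Its medians were -1.23, -1.25, -1.29, -1.475 and -1.37 in order of age, with ranges that overlapped. Fgf10, the ligand of branching, had -0.0268 (SE 0.0113, limma adjusted p = 0.243) and -0.0231 after correction (SE 0.0104, limma adjusted p = 0.369), with medians of -0.35, -0.49, -0.395, -0.46 and -0.54. Bmp1, a metalloproteinase gene whose enzyme trims procollagens and is no BMP ligand, had -0.0164 (SE 0.00753, limma adjusted p = 0.306), and its second spot 0.00814 (SE 0.0117). Wnt4 had 0.0244 (SE 0.012, limma adjusted p = 0.353).

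After position correction 0 of 50 members were called, as were 11 genes (0.154%). At an unadjusted p under 0.05, 5 members were upward (4.89% of genes) and 5 downward (7.45% of genes). The 5 upward were Bmpr2 (0.0249 z per 100 days, SE 0.00612, limma adjusted p = 0.068), Igfbp5 (0.0256, SE 0.00724, limma adjusted p = 0.0959), Fgfr1op2, Igf2 and Tgfbr3. Of these, Fgfr1op2, Igf2 and Igfbp5 had negative slopes as deposited, of -0.0208, -0.00484 and -0.00354. The second Fgfr1op2 spot was negative both as deposited (-0.0389, SE 0.0131) and after correction (-0.0103). The 5 downward were Bmp4, Tgfbi, Igflr1, Fgf10 and Fgfrl1, a decoy FGF receptor gene.

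**Figure D3:**
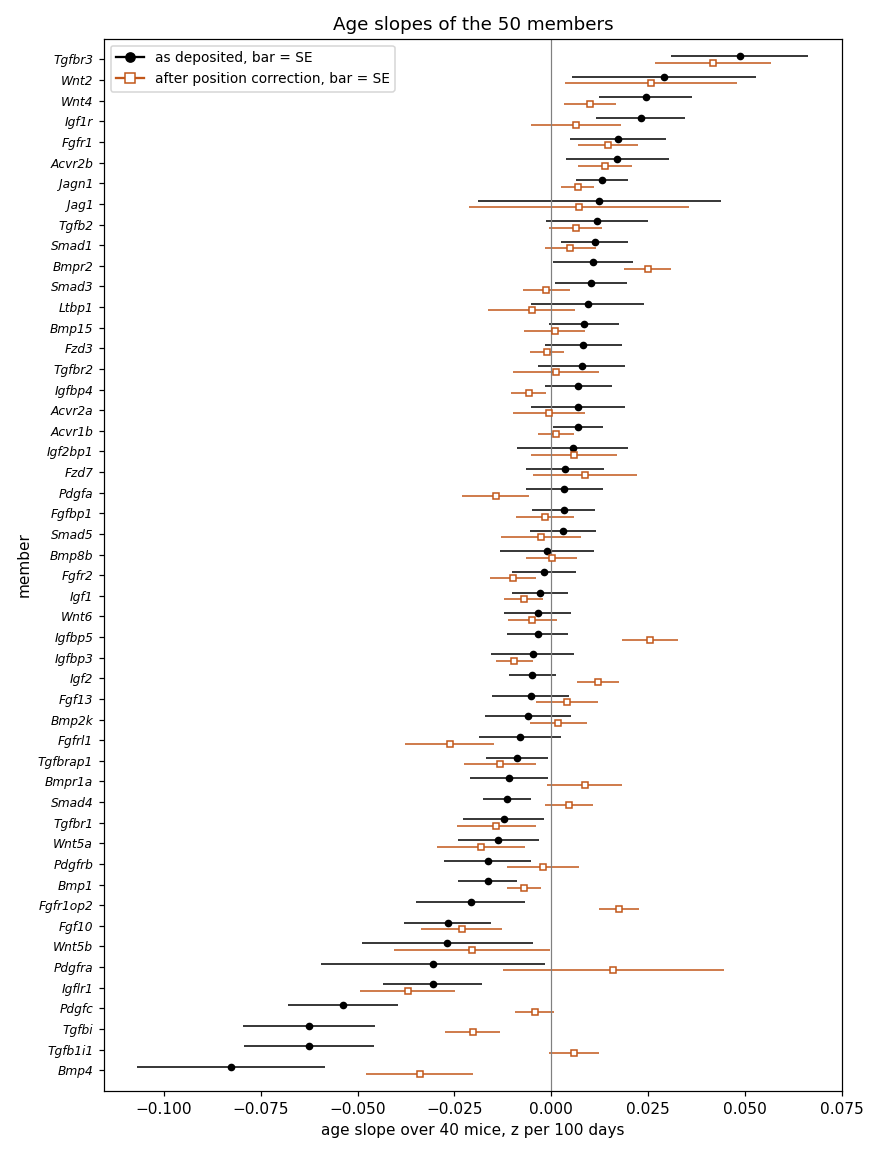
Age slopes of the 50 members over 40 mice in z per 100 days, ordered by the slope as deposited. Filled circles are the values as deposited and open squares those after position correction, each with its SE. Bmp4, Tgfb1i1, Tgfbi and Pdgfc lie lowest as deposited and move towards 0 or past it on correction, while Tgfbr3, Igflr1 and Fgf10 stay close to where they were.

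By role, the remaining members were spread on both sides of 0. Of the TGF-beta ligand and latency genes, Tgfb2 had a slope of 0.0118 z per 100 days (SE 0.0132) and Ltbp1, which stores latent TGF-beta in the matrix, 0.00938 (SE 0.0145). The signalling receptor genes Tgfbr1 and Tgfbr2 had -0.0123 (SE 0.0105) and 0.00788 (SE 0.0112), and the activin receptor genes Acvr1b, Acvr2a and Acvr2b 0.00692, 0.00698 and 0.0171. Among the 4 Smad genes, Smad1 and Smad5, which transmit BMP signals, Smad3, which transmits TGF-beta signals, and Smad4, their shared partner, the smallest p was that of Smad4, with -0.0114 (SE 0.00624, limma adjusted p = 0.437). None of these members had an unadjusted p under 0.05.

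The other BMP ligand genes, Bmp8b and Bmp15, had slopes of -0.00105 and 0.00854, and the receptor genes Bmpr1a and Bmpr2 -0.0109 (SE 0.0101) and 0.0108 (SE 0.0102). Among the Wnt ligand genes besides Wnt4, Wnt2 had 0.0292 with a wide error (SE 0.0238), and Wnt5a, Wnt5b and Wnt6 had -0.0136, -0.0268 and -0.00352. The Frizzled receptor genes Fzd3 and Fzd7 had 0.00832 and 0.00353. Fgfr1 had 0.0172 (SE 0.0124) and Fgf13, an intracellular homologous factor that is not secreted, -0.00531 (SE 0.00998). Fgfr2 and Fgfbp1, which encodes a carrier of secreted FGF, had -0.00186 and 0.00321. The IGF ligand genes Igf1 and Igf2 had -0.00293 (SE 0.00718) and -0.00484 (SE 0.00615), Igfbp3 and Igfbp4, whose proteins bind IGF, -0.00481 and 0.007, and the RNA-binding protein gene Igf2bp1 0.00551. The second Igf1 spot had the other sign, at 0.0138 (SE 0.00583, limma adjusted p = 0.247) and 0.00509 after position correction. Jag1 had 0.0124 (SE 0.0314), Pdgfrb -0.0164 (SE 0.0112), Pdgfra -0.0306 (SE 0.029) and Pdgfa 0.00333 (SE 0.00997). The TGF-beta and BMP named genes Tgfbrap1 and Bmp2k had -0.00875 and -0.00601, and Jagn1, an endoplasmic reticulum protein gene that is no Notch ligand, had 0.0132 (SE 0.00664).

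From 33 to 44 to 169 to 194 days no member was called, and none had an unadjusted p under 0.05 in either direction, against 0.378% of genes upward and 0.447% downward. The differences ran from -0.21 to 0.119 z with a median of 0.00951. None of the 50 members, and 0% of genes, had groups without overlap here or between 169 to 194 and 704 to 743 days.

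Over the 30 mice of 169 days or older, 0 of 50 members and 0% of genes were called. At an unadjusted p under 0.05 there were 2 upward, Igf1r and Tgfbr3 (0.993% of genes), and 2 downward, Pdgfc and Tgfb1i1 (1.59% of genes). Igf1r, the receptor gene for both IGF ligands, had 0.0424 z per 100 days (SE 0.0167) and Tgfbr3 0.0559 (SE 0.0266). The spots of both were among the dimmest 33.3% (means -0.781 and -0.5545 z). Without those spots 2 members had an unadjusted p under 0.05 in place of 4. Pdgfc had -0.0352 (SE 0.0163) and Tgfb1i1 -0.0417 (SE 0.0199), and position correction took these last 2 to -0.00832 and 0.00557, the sign of Tgfb1i1 turning. The limma adjusted p was 1 for each of the 4.

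In the oldest mice less those of 169 to 194 days, 0 of 50 members were called, as was 1 gene (0.014%). At an unadjusted p under 0.05, 3 members were upward (Igf1r, Tgfbr3 and Wnt2; 6% of members, 1.4% of genes) and 4 downward (Bmp4, Pdgfc, Tgfb1i1 and Fgf10; 8% of members, 2.25% of genes). The limma adjusted p was 0.999 for all 7. The spots of Igf1r, Tgfbr3, Wnt2 and Fgf10 were among the dimmest 33.3%. Without those spots 3 members had an unadjusted p under 0.05. Igf1r had a median of -0.87 at 169 to 194 days (range -1.01 to -0.67), -0.835 at 476 to 499 days (-1.16 to -0.62) and -0.605 at 704 to 743 days (-1.09 to -0.2). The oldest mice spread over both sides of the younger range, and the difference was 0.24 z (SE 0.0834; 0.193 after position correction, SE 0.0843). Tgfbr3 differed by 0.307 z (SE 0.137) and by 0.247 z after correction (SE 0.116). The summed z score of the 3 leukocyte markers was 1.49 to 3.78 at 169 to 194 days and 2.81 to 5.71 in the oldest mice, and its part in these differences was not tested.

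Wnt2, a Wnt ligand gene of lung mesenchyme, differed by 0.369 z (SE 0.181), from a median of -1.32 (range -2.81 to -0.07) to -1.085 (-1.36 to -0.3). Its 6-month group held the lowest and the highest of all 40 values, in 2 females, and leaving out 1 mouse at a time moved the difference between 0.206 and 0.52 z. Fgf10 differed by -0.186 z (SE 0.0871; -0.205 after correction, SE 0.0793), from a median of -0.395 (range -0.88 to 0.17) to -0.54 (-0.86 to -0.35). Bmp4 differed by -0.327 z (SE 0.149; -0.165 after correction), Pdgfc by -0.194 z (SE 0.086; -0.0429) and Tgfb1i1 by -0.231 z (SE 0.104), which turned to 0.0306 z. Without the females of 704 and 712 days, whose arrays had the lowest correlations of that group, 3 members had an unadjusted p under 0.05 in this comparison in place of 7, and without the male of 714 days, whose description names another mouse, 2 did.

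The sexes were compared next. In males less females 0 of 50 members were called (0% of genes), and none had an unadjusted p under 0.05, against 0.797% of genes upward and 0.993% downward. Differences ran from -0.209 to 0.203 z, the highest being that of Bmp4 (SE 0.106). Estimates were positive for 21 members (42%), against 53.1% of genes. For the difference in age slope between the sexes 0 of 50 members and 0% of genes were called. At an unadjusted p under 0.05 there were 2 members upward (Jag1 and Acvr2a; 0.601% of genes) and 0 downward (1.23% of genes).

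Jag1 had a slope of -0.0598 z per 100 days in females (SE 0.0423) and 0.0835 in males (SE 0.042), a difference of 0.143 (SE 0.0596, limma adjusted p = 0.999). In females its mean went from 1.78 ± 0.549 (SD, n = 5) at 169 to 194 days to 1.41 ± 0.776 and 1.08 ± 0.711 (n = 5 each) in the 2 older groups. In males it went from 1.23 ± 0.627 to 1.35 ± 0.227 and 1.81 ± 0.357 (n = 5 each). At 704 to 743 days the females ran from 0.5 to 1.95 and the males from 1.39 to 2.17, so the sexes overlapped in each of these groups. At 17 to 21 days the 2 males (0.78 and 0.85) lay below the 3 females (0.96 to 1.86). The second Jag1 spot, on table B, gave 0.0081 (SE 0.0137) for the same difference. Acvr2a, a type II activin receptor gene, had -0.0172 in females (SE 0.0167) and 0.0308 in males (SE 0.0166), a difference of 0.0481 (SE 0.0235, limma adjusted p = 0.999).

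**Figure D4:**
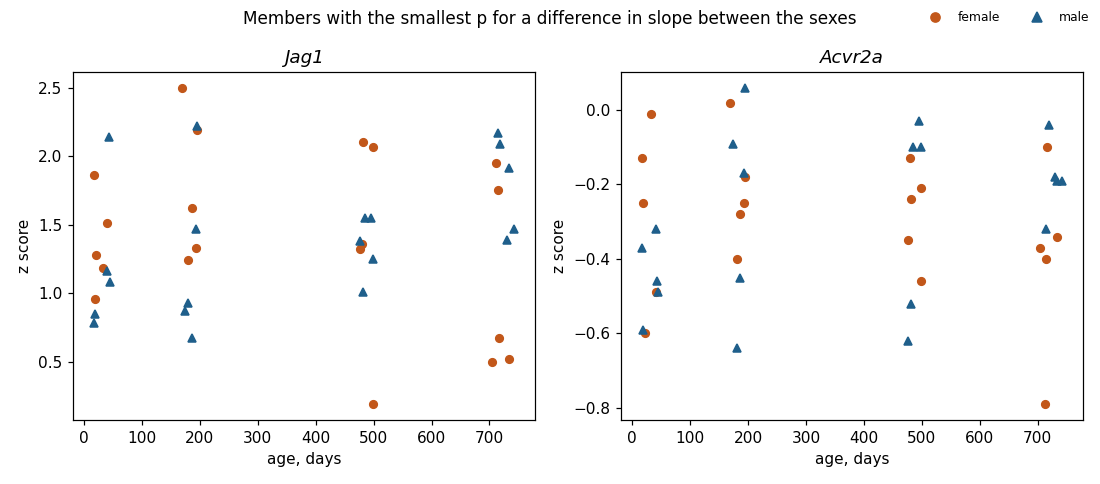
Z scores of Jag1 (left) and Acvr2a (right) against age in days, with circles for 20 females and triangles for 20 males. At the oldest ages 3 of 5 females have the lowest Jag1 values of that group, and in the 3 adult groups both sexes overlap for both genes.

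Different spots of a gene often disagreed. Of the 13 members with several spots, 6 had the same sign of age slope at every spot and 7 did not, and for 33 to 44 less 17 to 21 days the counts were 5 and 8. Wnt4 differed most. Its spot of highest mean, in column 18 of table B, had an estimate of 0.319 z and was not called, while the other, in column 9 of the same table, fell (-0.423 z, SE 0.091, limma adjusted p = 0.0194). The mean of both gave -0.0517 z. After position correction the estimates were 0.0801 and -0.0579 z. The age slopes of the same spots were 0.0244 (SE 0.012) and -0.0331 (SE 0.0116), and 0.00991 and -0.0044 after correction. Acvr2b had 0.194 z (SE 0.11) and -0.225 z (SE 0.0959), and the 5 Igf2bp1 spots ran from -0.0817 to 0.257 z.

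**Figure D5:**
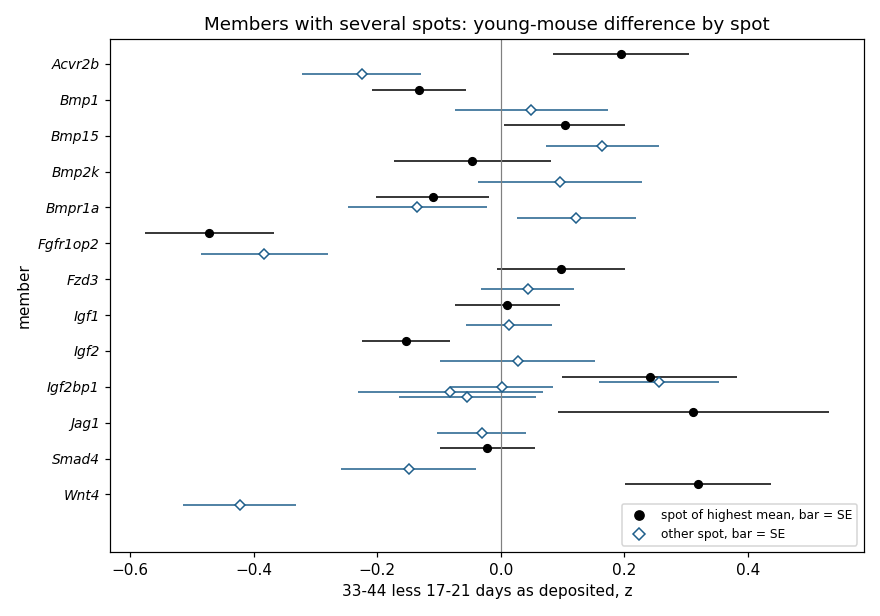
Difference of 33 to 44 less 17 to 21 days in z, as deposited, for each spot of the 13 members that have more than 1, with its SE. Filled circles are the spot of highest mean, used for the gene, and open diamonds the others. Both Fgfr1op2 spots lie below 0, while the Wnt4 spots lie at 0.319 and -0.423 z.

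Other genes of the same pathways, from a list of co-receptors, inhibitors, transducers and targets, were set beside the members. Of 163 listed genes 70 were measured. In the slope over 40 mice none was called, 3 had an unadjusted p under 0.05 upward (5.13% of genes) and 11 downward (10.4% of genes). The median slope was -0.00448 z per 100 days, against 0.00191 over all genes. The smallest p among Wnt partners was that of Ctnnb1 (beta-catenin, -0.0585, SE 0.0152, limma adjusted p = 0.0537) and among VEGF partners that of the co-receptor gene Nrp1 (-0.0721, SE 0.0181, limma adjusted p = 0.0537; -0.0035 after position correction). Among BMP partners the target gene Id2 had -0.039 (SE 0.0129) and the extracellular modulator Twsg1 -0.0259 (SE 0.00985), and all 4 measured BMP partners had negative slopes. The TGF-beta partner Fstl1 had -0.0476 (SE 0.0139, limma adjusted p = 0.0664), and the Smad repressor gene Skil -0.113 with a wide error (SE 0.0407). For Apc, whose protein is part of the complex that marks beta-catenin for destruction, the slope was -0.0436 (SE 0.0175). For the secreted semaphorin gene Sema3f it was -0.0506 (SE 0.0182). Position correction took Id2 to -0.00286, Fstl1 to -0.0165, Apc to -0.0174 and Sema3f to -0.0127. Ctnnb1 then stood at -0.0389, Twsg1 at -0.0365 and Skil at -0.109.

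Among Notch partners the gamma-secretase gene Psen2 had -0.0166 (SE 0.00594) and the protease gene Adam10 0.0338 (SE 0.015), and among PDGF partners the Ras GTPase activator gene Rasa1 had 0.0224 (SE 0.00804) and the ubiquitin ligase gene Cbl -0.0176 (SE 0.0188). The FGF antagonist genes Spry4 and Spred2 had 0.0283 (SE 0.0209) and -0.0188 (SE 0.0157). For IGF signalling the growth hormone receptor gene Ghr had -0.0176 (SE 0.00967) and the kinase gene Akt1 -0.0112 (SE 0.00812). No FGF or IGF partner of 9 and 5 measured had an unadjusted p under 0.05.

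Between 17 to 21 and 33 to 44 days 8 of the 70 partners were called, where 9.2% of all genes were. Fstl1 (-0.461 z), Id2 (-0.373 z), Apc (-0.394 z), Nrp1 (-0.647 z) and Sema3f (-0.573 z) fell. The Wnt pathway kinase gene Csnk1a1 (0.456 z, SE 0.123), the receptor adaptor gene Gab1 (0.478 z, SE 0.125) and the Notch-cleaving protease gene Adam10 (0.498 z, SE 0.121) rose, with limma adjusted p of 0.0423, 0.0372 and 0.0286. After position correction none was called. The 3 that rose then stood at 0.358, 0.442 and 0.353 z, while Apc stood at -0.148 z, Fstl1 at -0.122 z, Sema3f at -0.055 z and Nrp1 at -0.0535 z, and Id2 turned to 0.0242 z. Csnk1a1 and Gab1 were named after their values were seen.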

How the data were processed

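Lung RNA of 40 mice was hybridised as 33P-labelled cDNA to 2 array tables, 80 arrays in all. The deposited values are scores, per the file headers and values: z scores with mean 0 and SD 1 over the 8448 spots of each array, made by the authors. The sources used here give neither the scale under the z score nor the background correction, and the number of arrays limits the precision.

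Spots with 1 gene symbol named genes (9663 spots). limma 3.58.1 in R 4.3.3 was fitted to all spots of each table with age and sex as terms, with two-sided tests and Benjamini-Hochberg adjustment over 16896 spots (threshold 0.05). The comparison of 33 to 44 with 17 to 21 days used those 10 mice alone; the later age contrasts and the sex difference came from 5 age groups of all 40 mice with one shared spread. Grid layout was read from residual correlations of spots 22 apart (0.5 on table A, 0.54 on table B). The scripts were tested on simulated data. Promoters came from RefSeq (GRCm38.p6). Python 3.11.15 and matplotlib 3.10.9 served for plots.

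Named members were those of smallest p in each comparison and in each role. Members, marker and partner lists were chosen with earlier results of these data known. Scale, filters, array weights, position, title numbers and single mice were varied.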

Additional observations from a re-analysis of the deposited data

Results flagged for a closer look

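In 9 of 80 age groups tested, over 16 members, 1 mouse lay far from the rest of its group. Chance alone gives such a mouse in about 1 in 20 groups, and the members share mice and arrays. Of the 9, 4 concern the same mouse, the male of 476 days, which was highest of its group for Bmp4 (1.67 z, next 0.86), Tgfb1i1 (2.29 z, next 1.82), Tgfbi (2.38 z, next 1.93) and Pdgfc (1.48 z, next 1.12). These are the members of steepest negative age slope. Their spots lay in column 8 of table A (Bmp4) and in columns 7 (Tgfbi) and 9 (Tgfb1i1 and Pdgfc) of table B. Spots of these columns moved together between the young groups. The part of spot position in the values of this mouse was not tested.

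The female of 180 days was lowest for Pdgfra (-3.37 z, next -1.43), and the male of 194 days was highest for Tgfbr3 (0.46 z, next -0.54). For Acvr2a the female of 712 days was lowest (-0.79 z, next -0.4), and that mouse also had the lowest mean array correlation of its group on table A (0.876). In the young groups the female of 17 days was lowest for Igflr1 (-1.51 z, next -1.24) and the female of 33 days for Wnt2 (-1.59 z, next -1.17).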

How the results depend on the processing

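The count of 7 members that fell between 17 to 21 and 33 to 44 days became 0 with spot position corrected by block and column, 3 by column alone, and 0 with later title numbers as a block, with title numbers in 5 runs as a block, or with earlier title numbers only. It was 6 or 7 under the other 6 alternatives. Without the dimmest spots it was 6 of 33 members, since the Pdgfra spot was among those left out. With 1 mouse left out 0 to 8 members were called, and the 8 included Wnt4, which rose. The 0 members called in the age slope over 40 mice became 4 without the dimmest spots (33.3%), 5 with array weights, 3 with title runs as a block and 4 with log2 of age, and 0 to 5 with 1 mouse left out. In the other 5 comparisons it stayed 0 under every alternative run, and 0 to 0 with 1 mouse left out.

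Over all spots the slope called 3, against 458 without dim spots, 118 with trend and robust settings, 1313 with array weights, 20 with position correction, 404 with title runs and 1188 with log2 of age, and 0 to 2 with quantile normalization, position by column, earlier or later titles only, or without the 17 to 21 day mice or the 2 of lowest correlation. The young comparison called 1264 spots, against 507 by column, 0 by block and column, 0 with later titles as a block, 1 with title runs and 0 with earlier titles only. In the oldest mice less those of 169 to 194 days 1 spot was called, and 0 to 2 under the alternatives.

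With position corrected by block and column, 18 of 50 members changed the sign of their slope over 40 mice and 17 of 50 that of their young difference. Among members with an unadjusted p under 0.05 as deposited, signs reversed for Tgfb1i1 (slope over 40 mice 0.00599, over 30 mice 0.00557, oldest less 169 to 194 days 0.0306) and for Pdgfra (young difference 0.0502). They also reversed for Wnt4 with the mean of its spots (slope -0.00432, young difference -0.0517) and among later titles (slope -0.00171). Where a mechanism is not in the setting itself, the cause was not tested. Later titles alone could not give the young comparison, since both such mice are in 1 group. The labels give no replicate numbers shared between groups, so the blocks tried were those by title number.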
